A study of Rattus norvegicus with 110 samples.

Results

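This report describes the hepatic transcriptional effect of high-dose carbon tetrachloride (CCl4) in male rats whose paternal grandsires had themselves been dosed with CCl4. The 13 livers were chosen by the group number that opens each animal number, and they are 7 livers of group 19 (50% CCl4) and 6 livers of group 17 (olive oil vehicle), out of 83 liver and 110 liver and kidney libraries in the series. Both groups were outbred Sprague Dawley males of the F2 generation and shared the same ancestry. Their F0 grandsires received 50% CCl4 in olive oil by oral gavage 3 times a week for 6 weeks and recovered for 2 weeks before mating, their F1 sires received olive oil alone, and the females were untreated. The F2 males were dosed by gavage 3 times a week at 0.5 ml/kg, from 9 to 11 weeks of age, with olive oil (group 17) or with 50% CCl4 in olive oil (group 19), and liver was taken on day 39, 24 h after the last dose. Values are set beside those of group 18, 7 males of the same ancestry that received 8% CCl4, and beside groups 11 (olive oil) and 13 (50% CCl4), 7 males each with no treated ancestor. Some males were brothers, within a group and between groups 17 and 19, so the males are separate animals but not unrelated ones.

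CCl4 is a solvent that cytochrome P450 enzymes, chiefly those of hepatocytes around the central vein, convert into a radical that damages membranes. Repeated dosing kills pericentral hepatocytes, draws in inflammatory cells and activates stellate cells, which lay down scar matrix while the surviving hepatocytes divide. Livers under such injury are known to induce detoxification and acute phase genes and to lower genes of mature hepatocyte function.

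The 13 libraries held from 31638559 to 47209919 estimated counts on 31998 gene identifiers. Genes were tested where the counts of any liver group summed to over 10. Names came from the study's own table of identifiers and symbols, which pairs 1489 identifiers and lists genes that the study selected for an effect of F0 treatment in these same samples, so 1488 of the tested genes (7.83%) are described by name and 17516 have none. Of 39 gene lists drawn up for injured liver, 31 had at least 1 tested member with a name. The fibrillar and basement collagens, the hepatocyte and periportal markers, the rat sex-biased liver genes and the myofibroblast, B cell, neutrophil and dendritic cell markers had none and were not analysed here, so the labelled tissue could be checked on pericentral genes alone: Glul and Cyp1a2 were abundant in all 13 livers. Male 4 of group 17 and male 4 of group 19, which were necropsied on the same date, stood apart from their groups on the second principal component, at -123 and -71.6 against 0.77 to 31.3 in the other 11 males. Male 5 of group 19, of the same date, did not stand apart, at 6.11. In those males 11.5% and 9.65% of counts fell on genes with transcripts under 500 bases, against 4.62% to 5.86% in the others. Male 2 of group 17 stood apart on the third component, with 18475 identifiers above 0 against 17110 to 17499 in the other vehicle males. The counts of changed genes are given with and without these males, as are the named calls that were lost without 1 of them.

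High-dose CCl4 changed 4116 genes in descendants of treated grandsires, 21.7% of those tested, with calls made at a Benjamini-Hochberg adjusted p under 0.1 where the log2 fold change also exceeded 1 in size (edgeR's quasi-likelihood test, which also gives every adjusted p and every standard error below). Of these, 2734 genes rose (14.4% of those tested) and 1382 fell (7.27%). Without the fold limit 4476 genes were higher and 4632 were lower, so the excess of rises lay in the genes with large changes. The log2 fold change was above 3 in 636 of the genes that rose and below -3 in 368 of those that fell. The normalized counts of groups 17 and 19 did not overlap in 2535 genes (13.3% of those tested), with group 19 above in 1557 (8.19%) and below in 978 (5.15%). Among the 1488 genes with a symbol 177 changed (11.9%), 90 up (6.05%) and 87 down (5.85%), whereas 3939 of the 17516 genes without one did (22.5%). The genes with a symbol are therefore a less responsive set than the whole table. The 100 genes singled out here are not, since many were chosen for large changes, and 52 of them were called.

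The split between rises and falls depended on the scaling. Counts were scaled with TMM factors, which ranged from 0.77 to 0.86 in group 17 and from 1.06 to 1.31 in group 19. With total counts alone the median log2 fold change of all genes moved from -0.02 to 0.51, and 4750 genes then rose while 732 fell, or 86.6% of calls in the upward direction against 66.4%. None of the 52 called genes that were singled out by name or identifier changed sign under any of the 25 alternatives tried. In whole tissue, fewer cells of a type and less RNA per cell cannot be told apart, and this holds for every fall and rise described here.

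**Figure D1:**
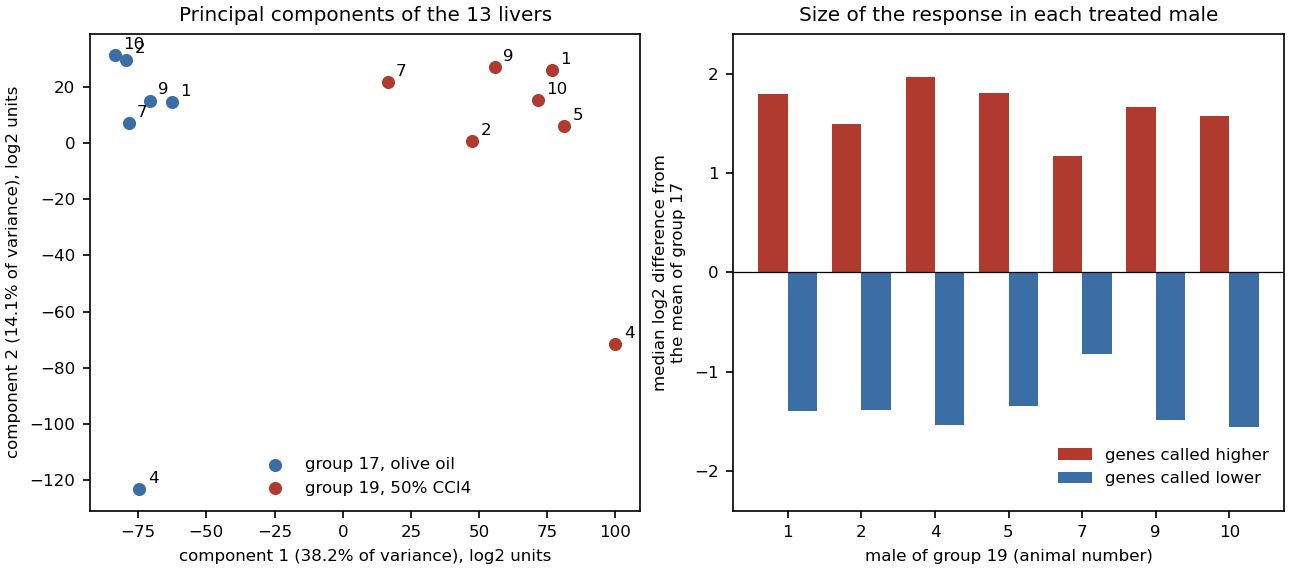
The left panel plots the 13 livers on the first 2 principal components of log2 normalized counts (log2 units). The right panel plots, for each male of group 19, the median log2 difference from the group 17 mean. It covers the genes called higher and those called lower that had a mean normalized count above 50. All 7 treated males lie to the right of all 6 vehicle males on component 1, both males numbered 4 lie low on component 2, and male 7 has the smallest bars.

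The treated males did not all respond to the same extent. The first principal component, with 38.2% of the variance, separated the groups completely, from -83.5 to -62.6 in group 17 and from 16.4 to 100.0 in group 19. Male 7 of group 19 lay nearest to the vehicle males. The size of the response was taken over called genes with a mean normalized count above 50. Over those that rose, the median log2 difference of male 7 from the group 17 mean was 1.18, against 1.49 to 1.97 in the other 6 treated males. Over those that fell, the difference was -0.83 in male 7 and from -1.56 to -1.35 in the others. In 18 of the 24 largest named rises and falls described below, male 7 was the treated male closest to group 17. Within groups, the median SD of log2 normalized counts over 12339 genes with a mean above 50 was 0.39 in group 17, 0.28 in group 18 and 0.30 in group 19. These spreads were 0.20 in group 17 and 0.22 in group 19 without the males numbered 4.

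The steepest falls over all genes rested largely on 1 vehicle male. Of the 368 genes with a log2 fold change below -3, 255 were highest in male 2 of group 17, and in 230 of them that male held over 80% of the group's summed count. Many of the 368 had low counts, with a median of 6.89 for the normalized group 17 mean. Without male 2, 127 genes were below -3, of which 115 were also below -3 with it, and 1066 genes fell in all, against 1382 with it. The rises changed little, from 2734 to 2695. Without both males numbered 4, 2492 genes rose and 1273 fell.

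Detoxification genes held some of the largest named changes. Of 5 named members of the list of genes linked to Nrf2, the factor that switches on antioxidant defence, 2 rose, 0 fell and 3 did not pass, where 14.4% of all genes tested rose and 7.27% fell. All list members come from the genes with a symbol, of which 6.05% rose and 5.85% fell, with a median log2 fold change of -0.09. Both backgrounds apply to each list below, and most lists are too short to be read against them. The median log2 fold change of the list was 0.61, against -0.02 for all genes tested. Gpx2, a selenium-dependent glutathione peroxidase best known from the gut epithelium, ranged from 2.39 to 10.1 normalized counts in group 17 (median 5.85) and from 10.8 to 326 in group 19 (median 173). The lowest treated male, male 7, lay just above the highest vehicle male, and the groups did not overlap. The log2 fold change was 4.79 ± 0.86 (SE; adjusted p = 5.3e-06), and group 18 read from 2.91 to 31.3 (median 5.20), with males 3, 6 and 8 above every vehicle male. Akr7a3, an aldo-keto reductase that detoxifies reactive dialdehydes such as those of aflatoxin, read from 838 to 4081 in group 17 (median 2269.7) and from 5037 to 14716 in group 19 (median 8263). All treated males were above all vehicle males, and the log2 fold change was 2.04 ± 0.35 (adjusted p = 2.5e-06).

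The other 3 members of the list were not called. Gss, glutathione synthetase, had a log2 fold change of 0.61 ± 0.15 (adjusted p = 0.00095), within the fold limit. Nfe2l2, which encodes Nrf2 itself, had medians of 5313 in group 17 and 5044 in group 19, with overlapping ranges and a log2 fold change of -0.13 ± 0.18 (adjusted p = 0.60). Osgin1, an oxidative stress-induced growth inhibitor, had medians of 15016 and 9238 that also overlapped (-0.53 ± 0.39, adjusted p = 0.28). The transcript of the regulator was thus not called where 2 genes linked to it were, and the protein was not measured.

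The promoters of the members of this list that rose are shown because the antioxidant response element, the DNA motif to which Nrf2 binds, can be looked for in them. Each run gives the 250 bases before the transcription start in RefSeq, on build GRCr8, read 5′ to 3′ on the strand of the gene, with the core letters TGACNNNGC in capitals where they occur on either strand. The Gpx2 promoter (minus strand, chr6:101230034-101230283) holds the letters once, on the opposite strand, starting 13 bases before the transcription start. The Akr7a3 promoter (plus strand, chr5:156876471-156876720) holds no match in the window.
Gpx2: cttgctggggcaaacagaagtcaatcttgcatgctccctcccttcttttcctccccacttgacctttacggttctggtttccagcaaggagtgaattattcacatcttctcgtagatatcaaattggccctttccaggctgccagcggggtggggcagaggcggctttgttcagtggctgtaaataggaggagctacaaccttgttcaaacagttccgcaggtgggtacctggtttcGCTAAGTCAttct
Akr7a3: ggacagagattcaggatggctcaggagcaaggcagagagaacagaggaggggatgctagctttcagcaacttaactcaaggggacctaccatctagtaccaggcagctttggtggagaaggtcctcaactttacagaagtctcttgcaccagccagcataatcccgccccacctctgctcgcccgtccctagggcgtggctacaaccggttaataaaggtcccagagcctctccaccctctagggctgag
The letters occur in 12.2% of 27457 rat promoter windows of 300 bases (250 before the start and 50 after it), and of the 5 named list members they occur in Gpx2 and Nfe2l2 and in no other. A match is a description of the sequence and not evidence of binding in these livers.

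Among xenobiotic-metabolizing enzymes, 1 of 2 named cytochrome P450 genes rose and the other did not pass. Cyp2c24, a rat member of the Cyp2c drug-metabolizing family, read from 11.3 to 48.1 in group 17 (median 31.7) and from 329 to 1811 in group 19 (median 1325), so that the groups were far apart. Its log2 fold change was 5.34 ± 0.64 (adjusted p = 2.8e-10), the second largest of the named rises, and counts of closely related Cyp2c genes may be shared with it. Group 18 lay between, from 100.3 to 265. Gstm3l, annotated as a glutathione S-transferase of the mu class, read from 66.8 to 237 in group 17 (median 103) and from 392 to 1031 in group 19 (median 834), again without overlap (2.46 ± 0.36, adjusted p = 5.9e-08). Cyp1a2, a pericentral enzyme that metabolizes caffeine and aromatic amines, had medians of 12549 in group 17 and 5381 in group 19. The ranges overlapped, with males 1, 7 and 10 of group 19 inside that of group 17 and male 7 the highest of them at 12274, and the log2 fold change of -0.87 ± 0.39 (adjusted p = 0.066) did not reach the fold limit. Without male 7 it was -1.09 and passed (adjusted p = 0.024).

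The acute phase list held the largest named rise beside several falls. Of 5 named members, 1 rose, 3 fell and 1 did not pass, with a median of -1.07 against -0.02 for all genes. Lcn2, which encodes lipocalin 2, a siderophore-binding protein secreted by injured hepatocytes and by neutrophils, read from 1.41 to 92.7 in group 17 (median 54.4) and from 509 to 4859 in group 19 (median 2257). Every treated male was above every vehicle male, with a log2 fold change of 5.76 ± 0.92 (adjusted p = 4.3e-07). Group 18 had a median of 138, nearer to the vehicle than to the high dose. Cfb, complement factor B, read from 540.4 to 724 in group 17 and from 170.0 to 388 in group 19 without overlap (-1.07 ± 0.19, adjusted p = 3.2e-06). Il6r, the receptor through which interleukin 6 drives the acute phase response, read from 2656 to 6075 and from 1500.3 to 2241, also without overlap (-1.35 ± 0.29, adjusted p = 0.00012). With total counts alone as scaling these were -0.54 and -0.81 and did not pass the fold limit, and without male 4 of group 19 Cfb did not either, at -0.97.

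A2m, alpha-2-macroglobulin, a protease inhibitor of plasma and a classical acute phase protein of the rat, had a pattern of presence and absence. It was listed at 0 in 6 of 7 males of group 19 and at 794 in male 9, whereas group 17 ranged from 356 to 2149. In group 18 2 of 7 males were at 0, and in group 13 all 7 were at 0 while group 11 read from 504 to 1776. The study's table pairs this identifier with a second gene beside A2m, so its counts are uncertain, and to which gene they belong was not tested. The fall in group 19 passed the test (adjusted p = 0.014) and also without male 9, but its fitted log2 fold change moved from -3.27 to -13.09, so no size is given for it. Socs3, the feedback inhibitor of interleukin 6 signalling, had medians of 220.0 in group 17 and 116 in group 19 with overlapping ranges (-0.87 ± 0.34, adjusted p = 0.031).

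Of 7 named chemokines and cytokines, 2 rose, 2 fell and 3 did not pass, where 14.4% of all genes tested rose and 7.27% fell. Cxcl12, a chemokine that retains leukocytes and stem cells, read from 12216 to 18496 in group 17 (median 14159) and from 2008 to 5759.8 in group 19 (median 4263). The highest treated male lay far below the lowest vehicle male, and the log2 fold change was -1.85 ± 0.25 (adjusted p = 6.0e-09). Il33, an alarmin released from damaged cells, read from 2325 to 5598 in group 17 and from 1025 to 1722 in group 19 (-1.33 ± 0.25, adjusted p = 1.6e-05), without overlap. With total counts alone it was -0.81 and did not pass. Ebi3, a subunit of the cytokines interleukin 27 and 35, read from 15.6 to 40.8 and from 62.6 to 160.0, also without overlap (1.96 ± 0.34, adjusted p = 2.8e-06).

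Ccl2, which recruits monocytes to injured liver, rose by 1.71 ± 0.69 on the log2 scale (adjusted p = 0.039), with overlapping ranges of 7.56 to 90.3 in group 17 and 31.3 to 341 in group 19. The call was lost without male 4 of group 19, the highest, at 1.18 (adjusted p = 0.17), and with the litter as a block (adjusted p = 0.15). Cxcl11, a ligand that attracts T cells, was lower in every treated male, from 373 to 469.6 against 607 to 874, but its log2 fold change of -0.75 ± 0.18 stayed within the fold limit. The named inflammatory mediators thus changed in both directions.

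Markers of the cells that could carry these changes were mostly within the fold limit, and their part in the results was not tested. Of 4 named Kupffer cell markers 0 passed, and their log2 fold changes lay between -0.21 for Cd5l and 0.35 for Adgre1. C1qb, a complement subunit made by resident macrophages, had medians of 2198 and 2867 with male 4 of group 17 highest, at 4664. Of 3 markers of recruited macrophages 0 passed: Ctsd, the lysosomal protease cathepsin D, was higher in every treated male, from 13535 to 24593 against 8465 to 9965, with a log2 fold change of 0.98 ± 0.12 (adjusted p = 5.5e-10), just inside the fold limit, which it passed in 7 of the 25 alternatives. The summed level of these 3 markers, most of which is Ctsd, read from 11454 to 13602 in group 17 and from 17619 to 30145 in group 19. Of the 3, Ctss, another lysosomal protease, overlapped between the groups (0.43 ± 0.16), as did the sum of the 4 Kupffer cell markers, from 7044 to 12904 and from 6248 to 13216. Cd4, which in the rat marks helper T cells and also macrophages, rose by 1.05 ± 0.17 (adjusted p = 9.9e-07), from 769 to 1109.5 in group 17 to between 1532 and 2719 in group 19. With the animal number as a block its log2 fold change was 0.99 and did not pass, and it also missed without male 4 of group 17 (0.998) and without male 1 of group 19 (0.96). Cd247, the T cell receptor zeta chain, differed by 0.45 ± 0.16. The sum of these 2 genes read from 826 to 1161 in group 17 and from 1617 to 2794 in group 19, and no named marker of these cell types was at 0 in any male.

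Endothelial and other markers gave no call. Of 4 named sinusoidal endothelial markers 0 passed the fold limit, although all 4 had an adjusted p under 0.1. Stab1, a scavenger receptor, had a log2 fold change of 0.77 ± 0.24 and Kdr, the receptor for vascular endothelial growth factor, of -0.65 ± 0.21, and Kdr was the only one of the 4 with a negative fold change (list median 0.73). The sum of the 4 overlapped, from 2923 to 5558 in group 17 and from 3697 to 6735 in group 19. With total counts alone 3 of the 4 passed, and 1 passed as higher without male 1 or 9 of group 17 or without male 2 or 7 of group 19. The single named markers of stellate cells (Lhx2, 0.02 ± 0.23), mast cells (Kit, 0.18 ± 0.19) and vascular endothelium (Gja5, 0.78 ± 0.27) did not pass. The only named erythroid marker, Gypc, was lower in every treated male, at 733 to 932 against 1006 to 1376 (-0.51 ± 0.11). Slc10a2, a bile acid carrier and the only gene described from the lists of bile duct cells and of bile acid transport, did not pass either (0.52 ± 0.30). Both Gja5 (1.32) and Slc10a2 (1.06) passed with total counts alone.

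Matrix genes rose in part, and none passed as lower with all males. Of 3 named glycoproteins and proteoglycans 1 rose and 2 did not pass. Ogn, osteoglycin, a small leucine-rich proteoglycan that binds collagen fibrils, read from 123 to 302 in group 17 (median 168) and from 328 to 958 in group 19 (median 691), and the groups did not overlap (1.91 ± 0.30, adjusted p = 2.7e-07). Its relative Omd, osteomodulin, had medians of 422 and 257 with overlapping ranges (-0.82 ± 0.27, adjusted p = 0.012). Agrn, agrin, was at 1639 and 1689.6 (0.10 ± 0.19). Of 8 named genes of matrix crosslinking and turnover 2 rose and 6 did not pass, with a list median of -0.22.

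Plau, urokinase, which starts plasmin-driven matrix breakdown, read from 125 to 204 in group 17 and from 308 to 741 in group 19 (1.36 ± 0.24, adjusted p = 2.6e-06). Adamts10, a secreted metalloprotease linked to fibrillin microfibrils, read from 217 to 371 and from 499 to 1227 (1.36 ± 0.18, adjusted p = 9.0e-09). Neither gene overlapped between the groups. Bmp1, the protease that trims procollagen, differed by -0.52 ± 0.13 (adjusted p = 0.00054) and Mmp15, a membrane-bound metalloprotease, by -0.06 ± 0.17. Without male 7 of group 19, 4 of the 8 genes passed, 2 higher and 2 lower.

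Ligands of the TGF-beta family moved in opposite directions. Of 4 named genes of TGF-beta and PDGF signalling 1 rose, 1 fell and 2 did not pass. Tgfb2, a TGF-beta ligand known from activated stellate cells and bile ducts, read from 25.4 to 69.4 in group 17 and from 107 to 254 in group 19, without overlap (1.89 ± 0.33, adjusted p = 3.2e-06). Inhba, the activin A subunit, which hepatocytes express, read from 522 to 1682 in group 17 (median 1006) and from 82.9 to 725 in group 19 (median 226), with males 1 and 4 of group 17 below male 7 of group 19 (-1.73 ± 0.35, adjusted p = 5.4e-05). The inhibitors Smad6 (-0.12 ± 0.27) and Ski (-0.33 ± 0.16) did not pass.

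Of 4 named cell cycle genes 2 rose and 2 did not pass, where 14.4% of all genes tested rose, and the list median was 0.85. Ccne1, cyclin E1, which drives entry into DNA synthesis, read from 8.82 to 28.2 in group 17 and from 40.9 to 122 in group 19, without overlap (2.05 ± 0.40, adjusted p = 2.5e-05). Wee1, the kinase that holds cells before mitosis, read from 88.9 to 211 and from 242 to 422, also without overlap (1.16 ± 0.27, adjusted p = 0.00029). Cdc25a, the phosphatase that activates cyclin-dependent kinases, differed by 0.53 ± 0.12 and Mcm10, a replication initiation factor, by -0.34 ± 0.37, and neither passed. Among 6 named p53 targets 1 rose and 1 fell, each by about the fold limit. Ddb2, a DNA damage sensor, read from 171 to 249 in group 17 and from 76.5 to 132 in group 19 (-1.03 ± 0.16, adjusted p = 2.0e-07), and Plk3, a stress-responsive kinase, had medians of 117 and 214 (1.03 ± 0.32, adjusted p = 0.0082). Each lost its call in several of the alternatives, where the log2 fold change came to between -0.99 and -0.49 for Ddb2 and between 0.91 and 0.9955 for Plk3. Plk3 missed the fold limit without male 2 of group 17 (0.91) and without male 4 (0.995), among others. Cdkn1a, which encodes the p21 inhibitor of proliferation, had overlapping medians of 1170.5 and 1032 (-0.16 ± 0.45, adjusted p = 0.82), and the stress hormone Gdf15 differed by 0.31 ± 0.49.

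**Figure D2:**
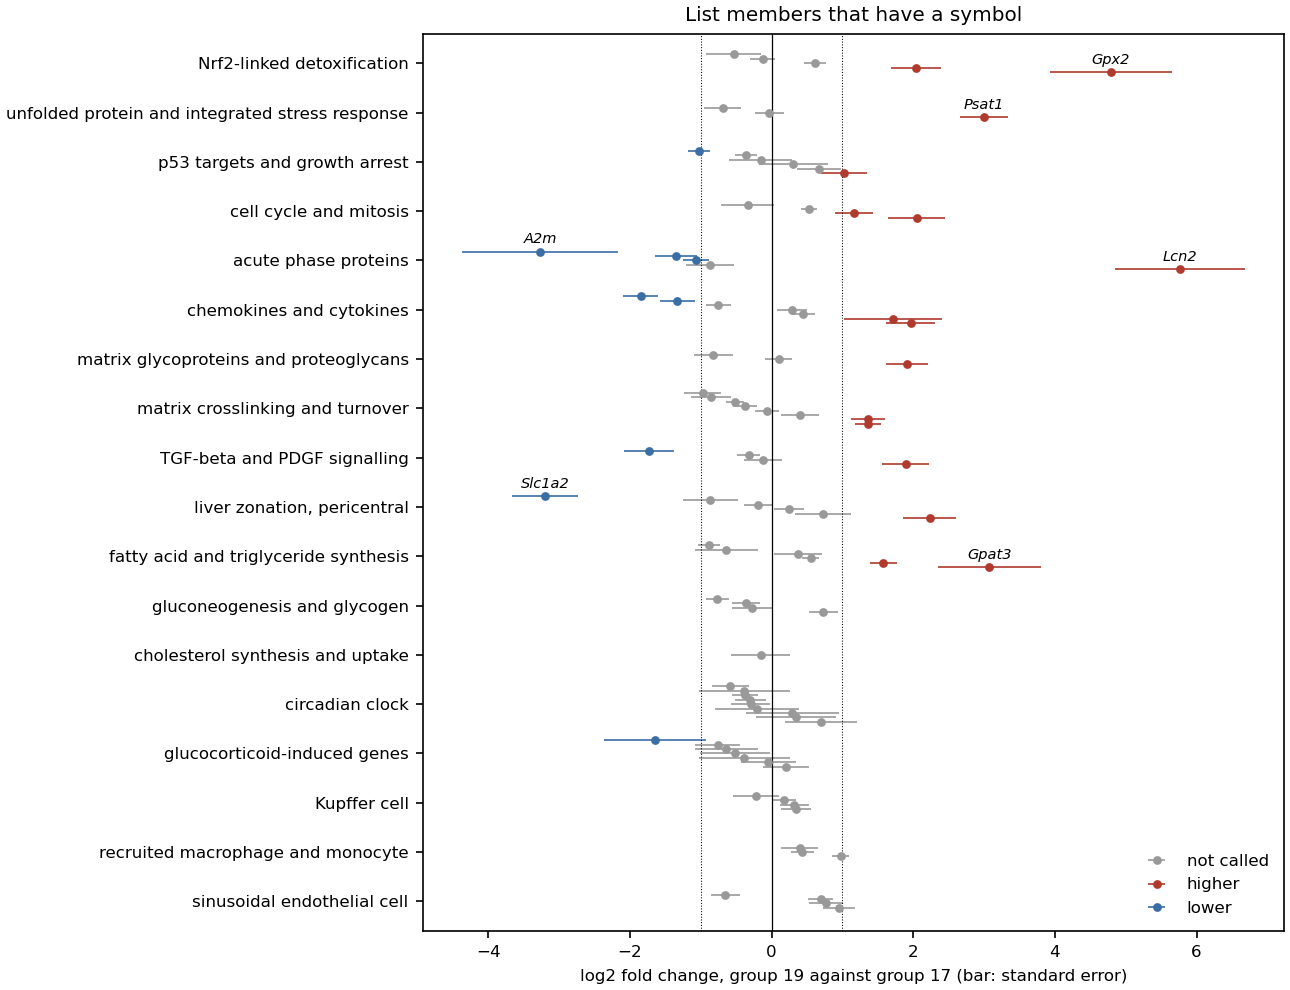
Each point is the log2 fold change of 1 named list member in group 19 against group 17, with its standard error as a bar, in rows by gene list for a selection of the lists and coloured by call. Most lists hold members on both sides of 0, and over all 31 lists 72 of the 102 named list genes were not called, against 20 called higher and 10 called lower, where 11.9% of genes with a symbol and 21.7% of all genes tested were called.

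Transporters and enzymes of the pericentral zone, where CCl4 is activated, changed unequally. Of 6 named members 1 rose, 1 fell and 4 did not pass, with a median of 0.03. Slc1a2, the glutamate transporter of pericentral hepatocytes, read from 99.4 to 319 in group 17 (median 161) and from 8.69 to 47.0 in group 19 (median 18.3), without overlap (-3.20 ± 0.47, adjusted p = 6.4e-08). Rhbg, an ammonium transporter of the same hepatocytes, read from 87.4 to 267 and from 261 to 1045, with male 9 of group 19 just inside the vehicle range (2.23 ± 0.38, adjusted p = 1.5e-06). Glul, glutamine synthetase, the classical marker of the cells next to the central vein, had medians of 10614 and 11202 (-0.19 ± 0.19, adjusted p = 0.45). Its median in group 18 was 5430.1, below both. Genes of the same metabolic zone thus had a fall, a rise and no call.

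In lipid metabolism, 2 of 6 named genes of fatty acid and triglyceride synthesis rose and 4 did not pass. Gpat3, which starts triglyceride assembly from glycerol phosphate, read from 15.6 to 159 in group 17 (median 25) and from 279 to 483 in group 19 (median 386), without overlap (3.08 ± 0.73, adjusted p = 0.00047). Male 7 supplied the highest vehicle value, and without it the log2 fold change was 4.07. Scd2, a desaturase that makes monounsaturated fatty acids, read from 379.6 to 841 and from 1354 to 2033 (1.58 ± 0.19, adjusted p = 5.7e-10). Cidec, a lipid droplet protein, was lower in every treated male, at 1425 to 2239 against 3160.3 to 4159, within the fold limit (-0.88 ± 0.16). Srebf1, the transcription factor of lipogenesis, overlapped widely (0.38 ± 0.34). Insig1, which restrains sterol synthesis, did not pass (-0.16 ± 0.42).

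Igfals fell among the genes of the liver's endocrine output, and 0 of the 4 genes described from the list of gluconeogenesis and glycogen passed. Gcgr, the glucagon receptor, was lower in every treated male, at 2398 to 3368 against 4273 to 6036, within the fold limit (-0.77 ± 0.16). Igfals, the hepatocyte protein that holds insulin-like growth factors in plasma and the only named member of the secreted protein list, read from 8927 to 16628 in group 17 (median 14249.7) and from 2183 to 9432 in group 19 (median 4145). Male 7 of group 19 was the only treated male inside the vehicle range (-1.51 ± 0.30, adjusted p = 3.6e-05). Aldoa and Ggt1, of the list of fetal and tumour-linked genes, both rose: Aldoa, the muscle-type aldolase, by 1.09 ± 0.16 (adjusted p = 3.2e-08), without overlap, and Ggt1, gamma-glutamyltransferase, by 2.74 ± 0.58 (adjusted p = 9.3e-05), with overlap through male 7 of group 19 at 45.7 and male 1 of group 17 at 51.5.

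Several lists had no more than 1 call. Psat1, an enzyme of serine synthesis induced by the integrated stress response, read from 34.0 to 67.7 in group 17 (median 41.2) and from 143 to 442 in group 19 (median 385), without overlap (3.00 ± 0.34, adjusted p = 7.4e-11). The other 2 named members of the unfolded protein and stress response list, Herpud1 (-0.03 ± 0.20) and Edem1 (-0.69 ± 0.26), did not pass. Of 7 named glucocorticoid-induced genes, only Zbtb16, a transcriptional repressor, was called (-1.64 ± 0.72, adjusted p = 0.060). It lost the call in 6 of the 25 alternatives, among them those without male 9 of group 17, the highest (adjusted p = 0.16), and without male 4 of group 17 (adjusted p = 0.13). Tat, tyrosine aminotransferase, which glucocorticoids induce, had medians of 22819.8 and 27404 (-0.05 ± 0.39). Of 9 named circadian clock genes, 2 transcription factors of hepatocytes (Onecut2, -0.60 ± 0.22, and Ahr, -0.10 ± 0.26) and 2 genes of amino acid breakdown, 0 passed. The coactivator Ppargc1a, the only named gene of fatty acid oxidation, did not pass either (0.70 ± 0.39).

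Across all named genes, the 12 largest rises without overlap were led by Lcn2, Cyp2c24, Gpx2, Unc5b, Gpat3 and Psat1. Unc5b, a netrin receptor that guides vessels and axons, had the smallest adjusted p of the 12, at 2.0e-15. It read from 93.1 to 345 in group 17 (median 218) and from 1428 to 3964 in group 19 (median 2367), a log2 fold change of 3.49 ± 0.30 that was between 3.33 and 3.67 whichever male was left out. Tril, an accessory protein of Toll-like receptor signalling, read from 17.6 to 49.1 and from 79.2 to 416 (2.64 ± 0.40, adjusted p = 1.8e-07). Ddr1, a receptor kinase that collagen activates, read from 40.9 to 115 in group 17 and from 214 to 554 in group 19 (2.53 ± 0.60, adjusted p = 0.00047), and 1 male of group 18 reached 1505. Disp1, which releases Hedgehog ligands, rose by 2.32 ± 0.35 and Pla1a, a secreted phospholipase, by 2.22 ± 0.29 (adjusted p = 1.1e-07 and 3.2e-09). Gstm3l and Ccne1, described above, complete the 12.

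The 12 largest named falls included receptors and signalling genes. Dab1, an adaptor of the reelin receptors, had the largest, from 721 to 1639 in group 17 (median 907) to between 22.3 and 278 in group 19 (median 52), with male 7 the highest treated male. Its log2 fold change was -3.32 ± 0.46 (adjusted p = 1.4e-08) and came to -3.81 without male 7. Avpr1a, the vasopressin receptor of hepatocytes, read from 2671 to 4978 and from 736 to 1754 (-1.60 ± 0.31, adjusted p = 1.9e-05). Fzd4, a Wnt receptor, read from 1678 to 5093 and from 795 to 1445 (-1.71 ± 0.23, adjusted p = 4.7e-09), with male 4 lowest in both groups. Paqr7, a membrane progestin receptor, read from 4909.9 to 10867 and from 974 to 4404 (-1.72 ± 0.31, adjusted p = 6.1e-06), and Gucy1b2, a subunit of guanylate cyclase, from 1166 to 2091 and from 201 to 1012 (-2.04 ± 0.30, adjusted p = 8.4e-08). In both genes male 7 was the highest treated male.

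The other falls of this set were of transporters and of genes little studied in liver. Mfsd2a, which carries lysophosphatidylcholine into cells, read from 2238 to 9623 in group 17 and from 548 to 1503 in group 19 (-2.07 ± 0.54, adjusted p = 0.0013). Slco5a1, a member of the organic anion transporter family, read from 123 to 173 and from 28.1 to 58.9, the tightest of the falls (-1.65 ± 0.19, adjusted p = 7.2e-11). Cabp2, a calcium-binding protein known from sensory cells, fell by 2.08 on the log2 scale (SE 0.34, adjusted p = 7.2e-07), from a median of 4399.6 to 1162. Lin7a, a scaffold protein of cell polarity (-1.73 ± 0.25), and Togaram2, which carries tubulin-binding domains (-2.08 ± 0.51), fell without overlap as well. Slc1a2 and Cxcl12, described above, complete the 12.

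**Figure D3:**
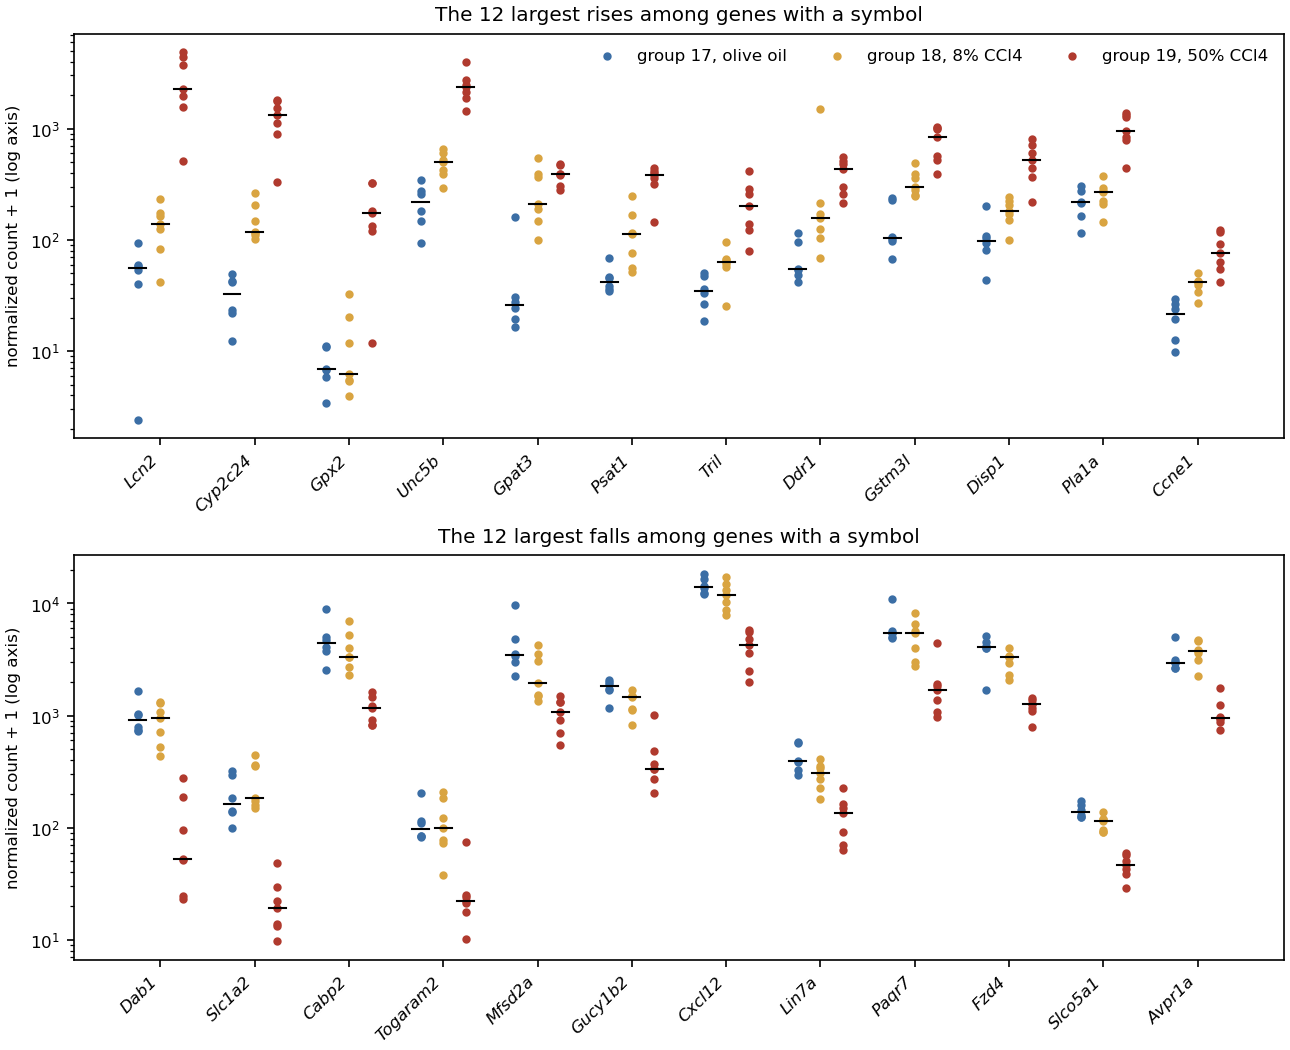
Normalized counts plus 1 on a log axis for the 12 largest named rises and the 12 largest named falls, with 1 point per male of groups 17 (olive oil), 18 (8% CCl4) and 19 (50% CCl4) and a bar at the median of each group. Groups 17 and 19 do not overlap in any of the 24 genes, because the genes were chosen so, and group 18 lies between them or with group 17 in most.

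Genes without a symbol held steeper changes than any named gene, and 4 are given by identifier. ENSRNOG00000050024.3 was at 0 in 5 of 6 vehicle males and at 4.69 in male 9, and ranged from 137 to 2194 in group 19. ENSRNOG00000009031.5 ranged from 0 to 2.42 in group 17 and from 46.9 to 1233 in group 19. Of the genes that fell, ENSRNOG00000008050.4 ranged from 2610.4 to 11296 in group 17 and from 0.74 to 24 in group 19 (-10.09 ± 0.84, adjusted p = 5.1e-16; -11.34 without male 7 of group 19), and ENSRNOG00000051118.1 from 197 to 1789.5 and from 0 to 15.6. In all 4, male 7 was the treated male nearest to the vehicle group. Over the whole table, 26 genes were at 0 in all 6 vehicle males and above 0 in all 7 treated males, and 1 gene had the opposite pattern.

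The low-dose group was set beside the vehicle and high-dose groups. High against low dose in the same ancestry, group 19 against group 18, changed 2376 genes (12.5% of those tested), with 1674 higher (8.81%) and 702 lower (3.69%). With total counts alone the split was 2902 higher and 378 lower. The comparisons with groups 17 and 18 share the males of group 19, so they are set side by side and their overlap is not read as a result. The mean of group 18 lay between those of groups 17 and 19 in 2333 of the 2734 genes that rose and in 1147 of the 1382 that fell. These genes were chosen because groups 17 and 19 differ, which favours a mean in between, so these counts are not read as a result. The same limit holds for the largest named rises and falls below.

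The named genes differed in how far the low dose went. All 12 of the largest rises had the mean of group 18 between the means of the other groups, and 10 of them passed against group 18 as well. Gpat3 (0.48 ± 0.61, adjusted p = 0.61) and Ddr1 (0.23 ± 0.52, adjusted p = 0.79) did not pass. Ddr1 read 1505 in male 6 of group 18, while the other 6 low-dose males lay below all males of group 19, and the medians were 155 and 432. Wee1 (0.18 ± 0.25) and Plau (0.46 ± 0.22) did not pass against group 18 either. Gpx2 and Ggt1 were higher in group 19 than in group 18 by 4.0 ± 0.74 and 2.77 ± 0.54. The low-dose and vehicle medians were 5.20 and 5.85 for Gpx2, whose means were 11.2 and 6.48, and 28.9 and 20.1 for Ggt1. All 12 of the largest falls passed against group 18, and in 9 of them group 18 lay between the other means. In Avpr1a, Slc1a2 and Togaram2, the low-dose medians of 3737, 182 and 97.4 were at or above the vehicle medians of 2961, 161 and 96.2. Glul was higher in group 19 than in group 18 by 0.86 ± 0.19 (adjusted p = 0.00033), within the fold limit.

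The high-dose effect in descendants of treated grandsires was then set against that in males with no treated ancestor, group 13 against group 11, by testing the difference of the effects. No gene passed (0 genes, 0.0% of those tested) at an adjusted p under 0.1 in edgeR's quasi-likelihood test, where the smallest adjusted p was 0.47. At an unadjusted p under 0.05 there were 878 genes (4.62%), and DESeq2's Wald test called 13. The median standard error of the difference was 0.24 on the log2 scale over genes with a mean count above 50. Differences of that size could not be told from the spread, and larger ones did not pass either. A gene without a symbol that differed by 0.82 ± 0.20 had an adjusted p of 0.47 in that quasi-likelihood test. A p that misses the threshold does not show that the effects were equal. Of the 2734 genes that rose in group 19, 2671 had a positive fold change in group 13 against group 11. The medians over the 2734 were 1.97 in group 19 against group 17 and 1.77 in group 13 against group 11. Of the 1382 that fell, 1152 had a negative one, and the medians over the 1382 were -1.82 and -1.27. All these genes were chosen for their change in group 19 against group 17, so selection favours larger values in that comparison. Without male 2 of group 17, the medians over the 1066 genes that fell were -1.45 and -1.34.

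The effects on named genes with and without treated grandsires were set side by side, with the limit that these genes have names because the study selected them for an effect of F0 treatment in the same livers. The 12 largest rises had a median log2 fold change of 2.82 in group 19 against group 17 and of 2.73 in group 13 against group 11, and the 12 largest falls had medians of -1.95 and -2.03. All 24 had the same direction. The genes were chosen for their changes in the former comparison, so selection favours large values in it and not in the latter. Lcn2 rose by 5.76 and 5.63 (difference 0.13 ± 1.04), Unc5b by 3.49 and 3.59 (-0.10 ± 0.37) and Dab1 was at -3.32 and -3.12 (-0.20 ± 0.60). The widest differences among the 24 were those of Cyp2c24, 5.34 against 3.39 (1.95 ± 0.75, unadjusted p = 0.011), and Gstm3l, 2.46 against 3.69 (-1.23 ± 0.47, unadjusted p = 0.011), and neither passed after adjustment. Among the other genes with a symbol named here, the smallest p values of the difference were those of A2m (unadjusted p = 0.0011), which was listed at 0 in all of group 13, of Kit, at 0.18 and -0.64 (0.82 ± 0.26, unadjusted p = 0.0021), and of Kdr, at -0.65 and -1.47 (0.81 ± 0.29, unadjusted p = 0.0067). None of them passed after adjustment. The 3 genes with the smallest p of the difference have no symbol. The lowest of them, at an unadjusted p of 3.4e-05, reached no more than 9.39 normalized counts in any male of groups 17 and 19. Another was at 0 in 5 of 6 males of group 17 and in 3 of 7 of group 19, and reached 632 in male 4 of group 19, with 84.2 the next highest. The third read from 185 to 278 in group 17 and from 331 to 498 in group 19, an effect of 0.77 against -0.05 (difference 0.82 ± 0.20).

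**Figure D4:**
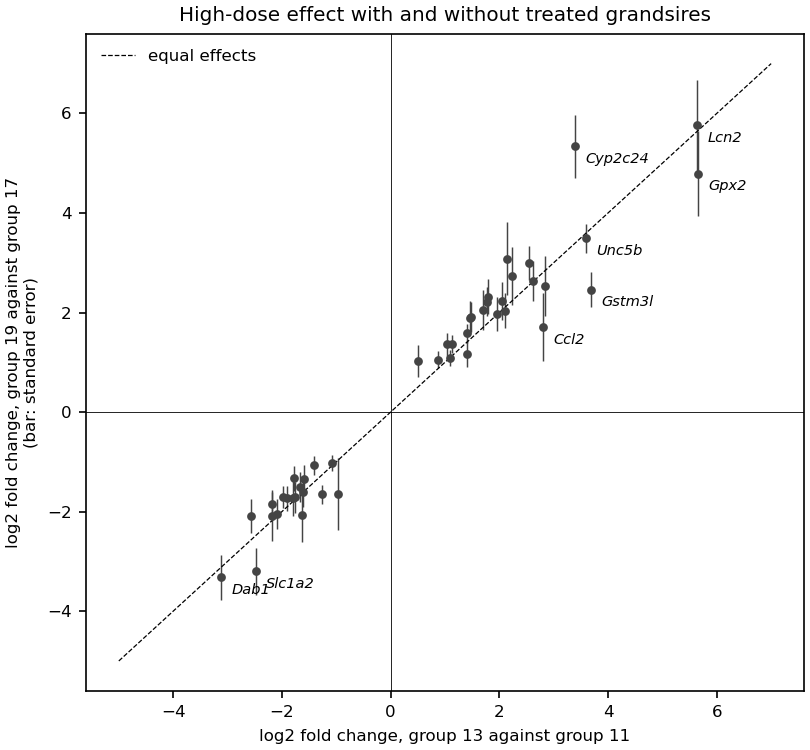
Log2 fold change of each called gene singled out by its symbol at the high dose with treated grandsires (vertical axis, group 19 against group 17, bar: standard error) against that without treated ancestors (horizontal axis, group 13 against group 11), with a dashed line of equal effects. A2m, at 0 in all of group 13, is left out, and most genes lie near the line, with Cyp2c24 above it and Gstm3l below it.

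The messenger RNA of high-dose livers was less concentrated in a few abundant genes. The 20 most abundant genes held 30.1% ± 3.01 (SD, n = 6) of all counts in group 17 and 26.0% ± 2.61 (SD, n = 7) in group 19, a difference of -4.08 percentage points (exact permutation test over 1716 splits, two-sided p = 0.029). Group 18 held 29.1% ± 2.56. Male 4 of group 17 lay apart at 24.1%, where the other vehicle males read from 30.5% to 32.6%, and without it the difference was -5.26 (exact p = 0.0038). For the 50 most abundant genes the difference was -6.11 (exact p = 0.0076) and for the 5 most abundant it was -2.20 (exact p = 0.14). For the 20 genes the exact p no longer passed 0.05 without male 1, 2 or 10 of group 17 or without male 2 or 4 of group 19, and the highest was 0.059. The TMM factors, which were higher in every male of group 19 than in any male of groups 17 and 18, are computed from the same libraries, and the part of library composition in single fold changes was not tested.

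**Figure D5:**
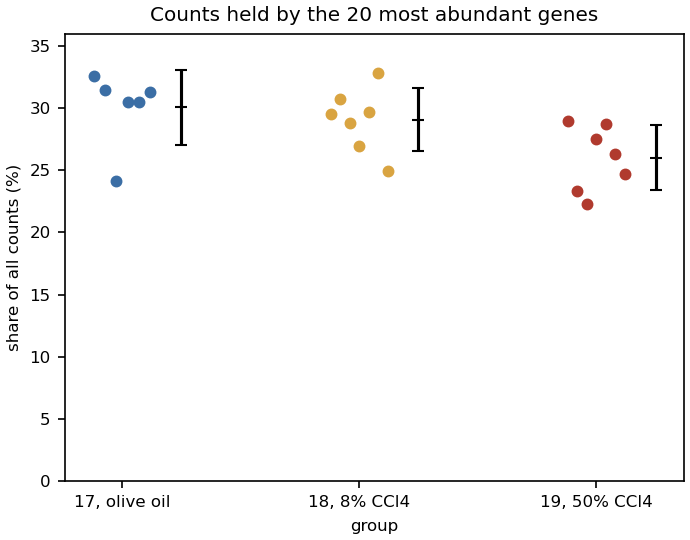
Share of all counts (%) held by the 20 most abundant genes in each male of groups 17, 18 and 19, with the group mean and its SD. The treated males of group 19 read between 22.3% and 29.0%, below all vehicle males but male 4, which lies at 24.1%.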

How the data were processed

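Livers were sequenced as stranded mRNA libraries. The authors quantified reads with Salmon 0.14.0 on Ensembl release 100 and summarized them by gene with tximport 1.10.1, and the deposited table holds estimated counts as whole numbers, not normalized; the deposited average transcript lengths (bases) were used as offsets in 1 alternative. Symbols came from the study's gene table. Genes whose counts summed to over 10 in any of 12 liver groups were tested over 83 livers with edgeR 4.0.16 (R 4.3.3), TMM factors and the quasi-likelihood F test on group means, with Benjamini-Hochberg adjustment over all genes tested. Normalized counts are counts divided by the relative effective library size. The SE is the log2 fold change divided by the root of F. Intervals and spreads cover these males only. Named genes were the 12 largest rises and falls with a symbol, a mean over 50 and no overlap, and up to 4 called and 2 uncalled members of each list, with fixed genes, genes of smallest p in the cohort comparison and 4 identifiers. Members and lists were chosen with earlier results of these data known. Males of groups 17 and 19 with the same number shared a necropsy date, and those numbered 1, 7, 9 and 10 also shared a litter. Their deviations from the group means correlated at 0.27, -0.02, 0.60, 0.15, 0.28 and 0.17 over numbers 1, 2, 4, 7, 9 and 10. Alternatives included DESeq2 1.42.0, blocks and leaving out each male. Total counts as scaling, and leaving out both males numbered 4, were chosen after seeing the data. Some genes of the lists are not reported here. Scripts were tested on simulated data.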

Additional observations from a re-analysis of the deposited data

Results flagged for a closer look

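Single males lay apart from their group in 27 of 202 groups of values examined (13.4%), where chance gives about 1 in 20. The measure was the gap to the nearest male over the group's range, on the log2 scale for genes and in percent for the share of abundant genes. Male 4 of group 17 accounted for 10 of the 27. It was highest for C1qb at 4664, Ctss at 3631 and ENSRNOG00000008050.4 at 11296 normalized counts, and lowest for Fzd4 at 1678, Kdr at 2022, Lcn2 at 1.41, Onecut2 at 379.6, Ski at 392 and Stab1 at 430.4, as well as for the share of the 20 most abundant genes at 24.1%. Male 7 of group 19 accounted for 6, each on the side of the vehicle group. It was lowest for Cyp2c24 at 329, Gpx2 at 10.8, Psat1 at 143 and ENSRNOG00000009031.5 at 46.9, and highest for ENSRNOG00000008050.4 at 24 and ENSRNOG00000051118.1 at 15.6.

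Among the other vehicle males, male 1 was highest for Avpr1a at 4978 and lowest for Ebi3 at 15.6 and Gucy1b2 at 1166. Male 2 was highest for Paqr7 at 10867, male 7 for Gpat3 at 159 and male 10 for Togaram2 at 204. Male 9 alone was above 0 for ENSRNOG00000050024.3 and for a gene without a symbol, each at 4.69. In group 19, male 9 was highest for A2m at 794 and Cd163 at 3827, and male 5 alone was above 0, at 0.74, for another gene without a symbol. Why these males stood apart was not tested.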

How the results depend on the processing

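The count of 4116 changed genes ranged from 3761 to 4375 when 1 male was left out and from 3297 to 5482 over the other alternatives, with total counts alone at the upper end. It was 3341 with the litter as a block (2369 higher, 972 lower), and 3037 of these were also called without it. With the animal number as a block the count was 3500, of which 3352 were also called without the block. Males of the same number in groups 17 and 19 shared a necropsy date, and those numbered 1, 7, 9 and 10 also shared a litter. Under this block 1920 genes differed between high and low dose and 0 between the cohorts. The high dose against the low dose gave 2376 genes, from 1923 to 2684 with 1 male left out, and 1391 with the litter as a block, the only alternative that moved it by over 1.5 times. The count of genes whose effect differed between cohorts was 0 in every alternative with edgeR, also with 1 male left out (0 to 0), and 13 with DESeq2's Wald test. The share of the 20 most abundant genes differed by -5.26 to -3.46 with 1 male left out and by -4.33 in pairs of equal number under the block (exact p = 0.031), and for the 5 most abundant genes by -2.20, past no threshold. Falls below a log2 fold change of -3 numbered 368, and 141 under the block, 137 with a filter on the mean count and 187 with DESeq2. Of the 52 called genes named, 42 kept the call in every alternative and 10 lost it in at least 1, and of 48 uncalled ones 11 gained it. Of all the named genes, Cd4 alone lost its call under the block. Counts of called genes do not give the identity of genes where no shared number is stated. Low counts and 6 or 7 males a group limit the precision.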
